A study of Mus musculus with 27 samples.

Results

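Endothelial identity genes are the transcripts by which the lining cells of blood and lymph vessels are usually recognised. A list of 40 such genes was followed across 27 mouse RNA sequencing libraries, and 39 of them were in the count table of 25192 gene symbols. Sox17, the remaining gene of the list, was not analysed here. The list names its genes and sets no threshold on a measured value. They comprise 9 junction and surface glycoproteins, 6 receptor kinases and their phosphatase, 4 secreted or matrix proteins, 8 transcription regulators, 5 other receptors and enzymes, 3 arterial genes and 4 lymphatic or scavenger genes.

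Vascular endothelial growth factors act through the receptor kinases Flt1, Kdr and Flt4, and angiopoietins act through Tek, which works with its partner Tie1 and is dephosphorylated by Ptprb. The junction proteins Cdh5, Pecam1, Cldn5 and Esam hold neighbouring endothelial cells together, and ETS, SOX, GATA and Tal1-Lmo2 regulators maintain the programme. Several of these genes are also used outside the vessel wall: Lmo2, Tal1 and Fli1 in blood cells, Stab1 in macrophages, and Cd34 and Ets1 in mesenchymal cells.

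The libraries came from 3 kinds of cultured mouse cell: cells labelled as aortic endothelial, embryonic fibroblasts, and macrophages grown from bone marrow. Each was treated with imidazole propionate (ImP, a product of histidine breakdown by gut bacteria) at 10 µg/mL for 1 or 2 h or was left unstimulated (0 h), giving 9 groups of 3 libraries. The stated purpose was to find the transcriptional responses to ImP in each cell type. No genotype, strain or age is given in the labels, there is no vehicle group at 1 or 2 h, and the origin of the replicates (cultures or animals) is not given, so p-values measure only the spread between these libraries, which may be technical. Cells labelled aortic endothelial were plated at 100000 per well, and their libraries were made with a low-input kit. Fibroblasts and macrophages were plated at 600000 per well and went through another RNA extraction and a directional kit. Cell type and preparation therefore cannot be told apart.

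Library totals were 19 to 61.0 M counts in the cells labelled aortic endothelial, 30.6 to 36.5 M in fibroblasts and 28.8 to 35.6 M in macrophages. Levels are given in CPM, counts relative to library sizes scaled by the trimmed mean of M values (TMM), as mean ± SD over the 9 libraries of a cell type unless a time is named. A total of 3 counts over 9 libraries, the limit that a count of 0 allows, corresponds to 0.00943 CPM in cells labelled aortic endothelial, 0.0088 CPM in fibroblasts and 0.012 CPM in macrophages, and covers counting error only. Among macrophages, the third library of 1 h and that of 2 h went against their labels, each being close to the first and second libraries of the other's group in the response genes Nfkbia and Tnf. The NF-kB inhibitor gene Nfkbia was at 46.4, 42.2 and 42.5 CPM in the 3 macrophage libraries of 0 h, 261, 251 and 47.3 CPM in those of 1 h and 52.1, 42.6 and 270 CPM in those of 2 h. The cytokine gene Tnf was at 17.7, 16.3 and 17.6 CPM in the macrophage libraries of 0 h, 264, 257 and 21.1 CPM in those of 1 h and 16.6, 21.4 and 310 CPM in those of 2 h. The labels were kept, so the macrophage values of 1 h and of 2 h each hold 1 library whose time is in doubt, and the log2 fold changes with ImP in macrophages are given with and without these libraries.

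For 21 members a RefSeq promoter window of the GRCm38.p6 build was at hand, 28 windows in all. The 250 bases before the RefSeq start are printed for 5 members that differed in the cell type of their highest level: Tek and Flt4 were highest in cells labelled aortic endothelial, Flt1 and Cd34 in fibroblasts, and Stab1 in macrophages. By the GENCODE M21 annotation the Flt4 gene begins earlier, at base 49609263, so its printed stretch lies inside that gene span. The stretches are chr4:94739039-94739288 (plus strand) for Tek, chr11:49609429-49609678 (plus) for Flt4, chr5:147726012-147726261 (minus) for Flt1, chr1:194938571-194938820 (plus) for Cd34 and chr14:31168642-31168891 (minus) for Stab1. Capitals mark matches on either strand to 4 motifs, namely AGGAAG, one ETS-type sequence, and CGGAAG, the other, as well as AACAAT, of SOX type, and AGATAA, of GATA type.
Tek: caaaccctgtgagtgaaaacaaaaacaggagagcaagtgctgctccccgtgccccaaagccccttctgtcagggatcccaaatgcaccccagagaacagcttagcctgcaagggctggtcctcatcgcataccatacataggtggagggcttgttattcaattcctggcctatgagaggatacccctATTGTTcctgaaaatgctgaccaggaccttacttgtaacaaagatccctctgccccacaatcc
Flt4: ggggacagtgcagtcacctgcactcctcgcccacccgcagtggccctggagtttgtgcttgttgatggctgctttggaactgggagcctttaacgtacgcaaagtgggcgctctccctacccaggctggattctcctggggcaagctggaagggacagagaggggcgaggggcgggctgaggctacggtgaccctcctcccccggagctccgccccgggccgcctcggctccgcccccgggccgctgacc
Flt1: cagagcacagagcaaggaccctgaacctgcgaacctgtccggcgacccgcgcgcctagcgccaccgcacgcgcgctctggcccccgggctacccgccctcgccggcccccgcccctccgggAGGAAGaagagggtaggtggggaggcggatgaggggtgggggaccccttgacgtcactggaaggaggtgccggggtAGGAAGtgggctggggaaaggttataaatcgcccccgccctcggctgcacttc
Cd34: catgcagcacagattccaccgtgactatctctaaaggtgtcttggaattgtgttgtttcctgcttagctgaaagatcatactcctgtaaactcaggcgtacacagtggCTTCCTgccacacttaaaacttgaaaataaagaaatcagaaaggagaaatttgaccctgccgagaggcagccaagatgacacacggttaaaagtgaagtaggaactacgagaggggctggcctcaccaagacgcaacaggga
Stab1: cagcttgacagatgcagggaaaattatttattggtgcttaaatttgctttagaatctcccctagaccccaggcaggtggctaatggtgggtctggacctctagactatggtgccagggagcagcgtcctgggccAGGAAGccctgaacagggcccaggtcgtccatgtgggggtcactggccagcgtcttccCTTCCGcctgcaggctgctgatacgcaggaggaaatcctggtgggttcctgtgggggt

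An ETS-type sequence was present in 2 places of the Flt1 stretch, 2 of Stab1 and 1 of Cd34, with no match in those of Tek and Flt4. Tek held 1 SOX-type sequence. Over the whole 300-base windows, which add the first 50 transcribed bases, either ETS-type sequence was found in 10 of the 21 members with a window, that is in 11 of their 28 windows, against 46.5% of all 32851 windows in the table. The SOX-type sequence was in 4 of 28 member windows (Emcn, Erg, Mmrn1 and Tek) against 10.7% of all windows. The GATA-type sequence was in 3 of 28 (Erg, Tal1 and Tek) against 11.2%. These are letter matches in a short window and describe the sequences alone.

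The 12 genes listed here as endothelial markers were low or absent in the cells labelled aortic endothelial. This list, like the others, was chosen with earlier results of these data known. The 4 members with a mean of at least 10 CPM in these cells, Cd34, Ets1, Ptprb and S1pr1, are not on it. Of 35 other endothelial pathway genes, described below, 18 reached 10 CPM there, 20 in fibroblasts and 12 in macrophages. Of 12 endothelial markers, 0 reached a mean of 10 CPM in these cells, 0 in fibroblasts and 2 in macrophages. At 1 CPM the counts were 4 in cells labelled aortic endothelial, 3 in fibroblasts and 2 in macrophages. Of the 10 markers with a count anywhere, Pecam1, Tek, Emcn, Esam and Egfl7 were highest in cells labelled aortic endothelial, Cdh5 and Tie1 in fibroblasts, and Vwf, Kdr and Erg in macrophages. The summed level of the 12 markers was 5.93 to 19.7 CPM per library in cells labelled aortic endothelial, 8.63 to 12.4 CPM in fibroblasts and 161.0 to 198.0 CPM in macrophages. The macrophage sum was carried by Vwf and Kdr, and without these genes the sums were 5.71 to 19.2 CPM in cells labelled aortic endothelial, 7.11 to 10.7 CPM in fibroblasts and 1.23 to 1.84 CPM in macrophages. Cldn5, the claudin of tight endothelial junctions, and Robo4, an endothelial guidance receptor, had no count in any of the 27 libraries. Some transcripts that mark other cells of the vessel wall and connective tissue were abundant under the endothelial label. A mean of at least 10 CPM was reached by 9 of 11 fibroblast, 5 of 8 smooth muscle and 3 of 6 pericyte markers. Of all gene symbols 33.6% reached it. In fibroblasts the counts were 4 of 11, 1 of 8 and 2 of 6, beside 34.6%. Fibroblast markers summed to 1990 to 2890 CPM per library under the endothelial label and 3080 to 4210 CPM in fibroblasts. Smooth muscle markers summed to 815 to 1450 against 205 to 261 CPM, and pericyte markers to 243 to 453 against 125 to 176 CPM. Under the endothelial label the smooth muscle actin gene Acta2 averaged 776 ± 178 CPM and the pericyte gene Rgs5 242 ± 60.5 CPM. The surface glycoprotein gene Thy1, of the fibroblast list, averaged 437 ± 32.1 CPM there. In fibroblasts Acta2, Rgs5 and Thy1 averaged 6.8 ± 0.616, 0.311 ± 0.109 and 0.605 ± 0.24 CPM. The collagen genes Col1a1 and Col1a2 went the other way (528 ± 151 and 555 ± 60.8 against 2110 ± 236 and 1540 ± 125 CPM in fibroblasts). Other markers of these lists were low under the endothelial label. The fibroblast genes Lum and Fap averaged 1.73 ± 0.749 and 3.41 ± 1.79 CPM. The smooth muscle genes Myh11 and Myocd averaged 1.65 ± 0.995 and 0.306 ± 0.456 CPM. The pericyte genes Kcnj8 and Abcc9 averaged 0.0904 ± 0.271 and 0.0871 ± 0.146 CPM. Smtn (34 ± 10.6 CPM) and Cspg4 (17 ± 4.31 CPM) were lower there than in fibroblasts (218 ± 19 and 127 ± 14.4 CPM). The 12 macrophage markers summed to 46.7 to 85.9 CPM under the endothelial label, 29.2 to 66.8 CPM in fibroblasts and 26500 to 30700 CPM in macrophages. In bulk RNA, fewer cells of a type and less RNA per cell cannot be told apart. The part that a mixture of cells plays in the levels below was not tested, and the cells are named by their label throughout.

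As a set, the members were at modest levels in the cells that carry the endothelial label. A mean of at least 1 CPM was reached by 17 of 39 members in cells labelled aortic endothelial, 12 in fibroblasts and 12 in macrophages, where 50.1%, 46.6% and 46.3% of all gene symbols reached it in the same order. At 10 CPM the counts were 4, 3 and 9 members, beside 33.6%, 34.6% and 34.9% of all symbols, again in that order. The summed level of the 39 members was 206 to 310 CPM per library in cells labelled aortic endothelial, 852 to 978 CPM in fibroblasts and 1840 to 1990 CPM in macrophages, and these ranges did not overlap. These sums rest on a few genes. The 3 most abundant members of each cell type held 69.9% of the sum in cells labelled aortic endothelial (Cd34, Ets1 and Ptprb), 96.2% in fibroblasts (Cd34, Ets1 and Flt1) and 83.1% in macrophages (Stab1, Vwf and Lmo2). Without them the sums were 62.3 to 87.0 CPM in cells labelled aortic endothelial, 31.2 to 41.4 CPM in fibroblasts and 316 to 327 CPM in macrophages. The order between cells labelled aortic endothelial and fibroblasts was then the reverse of that of the full sums. The genes left out were not the same, however. Flt1 was left out in fibroblasts (mean 91.1 CPM) and kept in cells labelled aortic endothelial (7.21 CPM).

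The leading members differed between the cell types. On a scale corrected for exon length (TPM), Cd34 (36.5), Ets1 (22.3), Plvap (11.1) and S1pr1 (10.3) had the highest levels in cells labelled aortic endothelial. Fibroblasts were led by Cd34 (356), Ets1 (82.1), Flt1 (27.8) and Plvap (18.2) on the same length-corrected scale. Macrophages were led by Stab1 (354), Lmo2 (202), S1pr1 (124) and Fli1 (82.1). The heat map of all members shows these blocks of high values by cell type rather than by time.

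**Figure D1:**
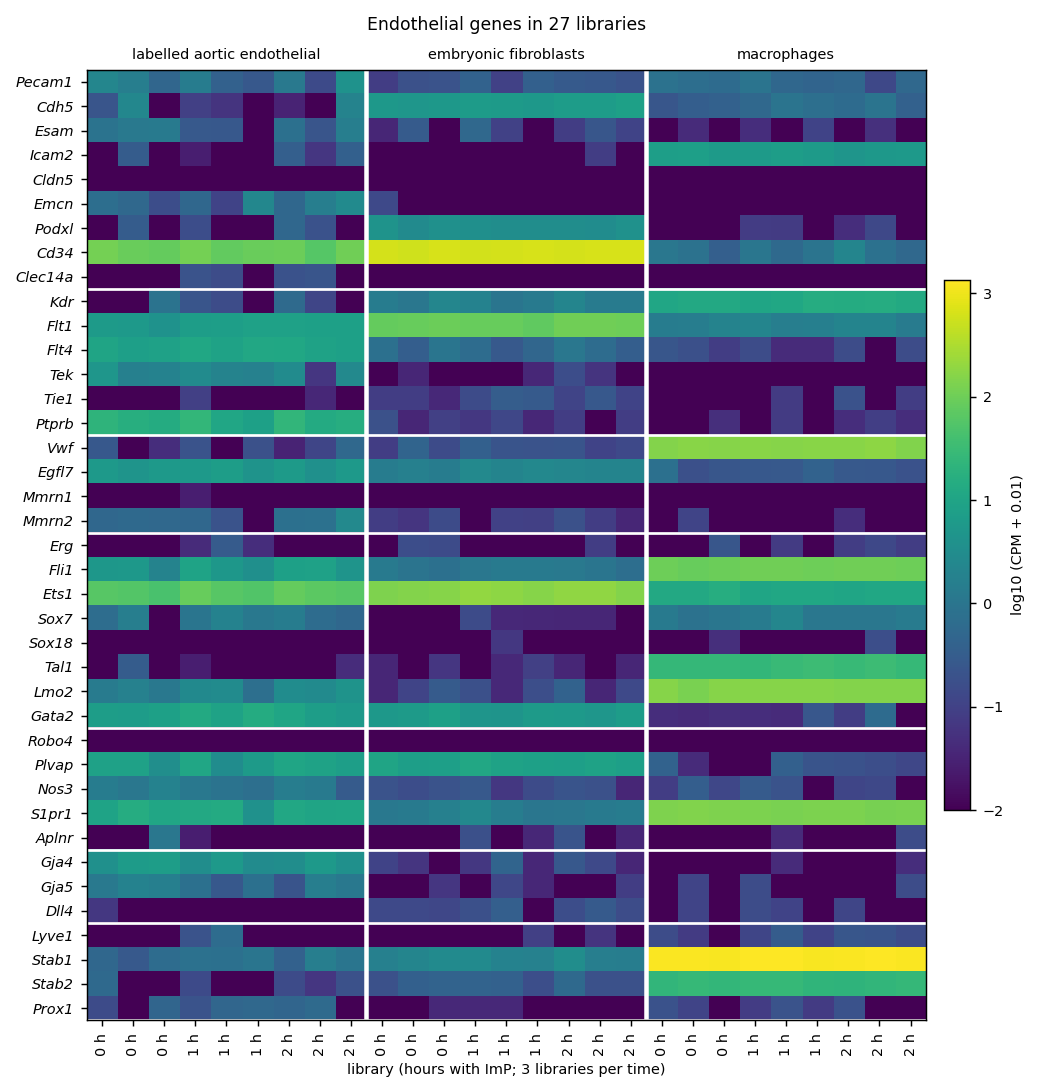
Levels of the 39 members (rows, in 7 role groups set apart by horizontal white lines) in the 27 libraries (columns, in order of hours with ImP), as log10 of CPM + 0.01. Cd34 and Ets1 are bright in cells labelled aortic endothelial and brighter in fibroblasts, Stab1, Vwf, Lmo2, S1pr1 and Fli1 are bright in macrophages, and Cldn5 and Robo4 are at 0 throughout.

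Of the 39 members, 26 had a mean of at least 1 CPM in at least 1 cell type and 13 had it in none. Cells labelled aortic endothelial held the highest level of 10 of these 26, fibroblasts of 6 and macrophages of 10. Every library of the cell type lay above every library of both others for 5 of the 26 members in cells labelled aortic endothelial, 5 of the 26 in fibroblasts and 9 of the 26 in macrophages. Among all 14186 genes at 1 CPM in some cell type, 22.7%, 19.1% and 22.6% stood apart in this way in the same order, so the members' shares in cells labelled aortic endothelial and in fibroblasts are near the background.

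The fit of all 27 libraries (edgeR quasi-likelihood test, Benjamini-Hochberg adjusted p under 0.05 over 17038 genes) took in 29 members, and the other 10 had too few counts. Against fibroblasts, 18 members were higher and 8 lower in cells labelled aortic endothelial, at a background of 42.5% of all genes higher and 40.1% lower (82.6% in all). Against macrophages, 18 were higher and 9 lower, at 45.3% and 40.1% (85.3% in all). Fibroblasts against macrophages gave 12 higher and 12 lower, at 41.9% and 38.1%. Most genes at large were called between these cell types, and the members called in either direction, 26 and 27 of 29, are close to that background. The median log2 ratio of mean levels was also taken, with members at 0 set to the 3-count limit. For cells labelled aortic endothelial over fibroblasts it was 2.26 over 35 members (22 above 0, 13 below) against 0.14 over 22376 genes. For those cells over macrophages it was 1.89 over 36 members (20 above 0, 16 below) against 0.26 over 22253 genes. Some large ratios rest on low levels, such as Emcn (1.03 against 0.0138 CPM in fibroblasts) and Prox1 (0.319 against 0.00947 CPM). The abundant Cd34, Ets1 and Flt1 were lower than in fibroblasts. Requiring a mean of 1 CPM over all libraries left 9 members higher and 8 lower against fibroblasts.

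**Figure D2:**
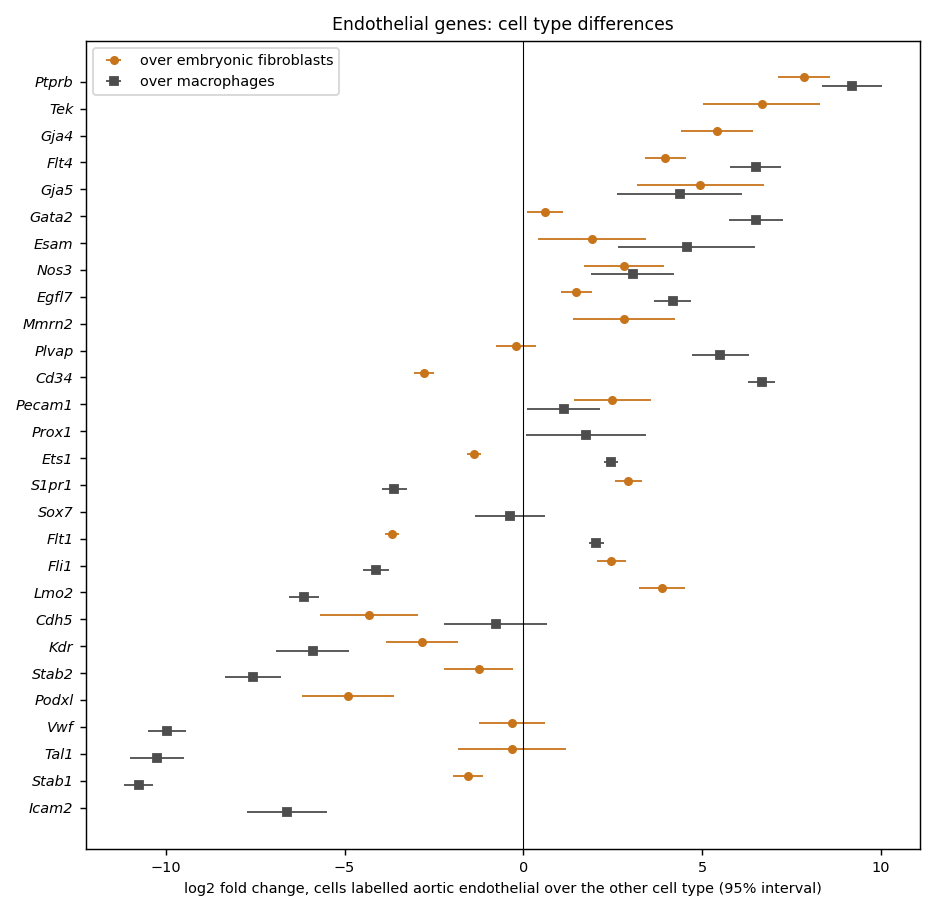
Log2 fold change of the cells labelled aortic endothelial over fibroblasts (circles) and over macrophages (squares), with 95% intervals, for each member without a group at 0 counts; a contrast in which a group had no count has no symbol. Ptprb and Flt4 lie to the right of 0 against both cell types, Cd34, Ets1 and Flt1 lie left of 0 against fibroblasts and right of it against macrophages, and Stab1, Vwf, Tal1 and Kdr lie far to the left against macrophages.

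Among the receptor kinases and their phosphatase, Ptprb, Flt4 and Tek were higher in cells labelled aortic endothelial than in both other cell types, while Flt1 and Kdr were not. Ptprb, the phosphatase that acts on Tek and on Cdh5 complexes (chr10:116275523-116389535, plus strand), was present in every library under the endothelial label. In cells labelled aortic endothelial it was at 8.12 CPM in the lowest, 15.6 in the median and 24.5 in the highest library, against 0, 0.0747 and 0.174 CPM in fibroblasts and 0, 0.0368 and 0.0811 CPM in macrophages. Every library under the endothelial label was above every other library. The log2 fold change was 7.85 (SE 0.35, edgeR adjusted p = 3.42e-17) over fibroblasts and 9.19 (SE 0.409, adjusted p = 2.39e-17) over macrophages.

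Flt4, the receptor for the lymphatic growth factors Vegfc and Vegfd, ran from 7.69 over 9.06 to 11.7 CPM (lowest, median, highest) in cells labelled aortic endothelial, against 0.258, 0.653 and 1.09 CPM in fibroblasts and 0, 0.145 and 0.221 CPM in macrophages. No library of the other cell types reached this range, and the log2 fold changes were 3.97 (SE 0.28) and 6.49 (SE 0.349; edgeR adjusted p = 6.68e-13 and 1.53e-15). Tek, the angiopoietin receptor, was at 0.0539, 1.95 and 5.0 CPM in cells labelled aortic endothelial and at 0, 0 and 0.153 CPM in fibroblasts. It had no count in any macrophage library. The lowest library under the endothelial label, the second at 2 h, lay within the fibroblast range. Tek was higher by 6.67 on the log2 scale over fibroblasts (SE 0.78, edgeR adjusted p = 1.28e-07) and at least 213-fold higher than in macrophages, against 3 counts over the group.

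Flt1, the high-affinity receptor and decoy for Vegfa, gave the opposite order between cells labelled aortic endothelial and fibroblasts. It was at 4.12, 7.45 and 8.73 CPM in cells labelled aortic endothelial, against 76.3, 88.2 and 106 CPM in fibroblasts and 1.38, 1.61 and 2.11 CPM in macrophages. The 3 ranges were separate from one another. Its log2 fold change was -3.68 (SE 0.09, edgeR adjusted p = 1.01e-22) against fibroblasts and 2.04 (SE 0.0986, adjusted p = 1.57e-16) against macrophages.

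Kdr, the main signalling receptor for Vegfa on endothelium, was lowest in the cells that carry the endothelial label. It was at 0, 0.108 and 0.869 CPM there, against 0.975, 1.38 and 2.22 CPM in fibroblasts and 10.2, 12.4 and 14.9 CPM in macrophages. The ranges did not overlap, and the log2 fold changes were -2.85 (SE 0.487, edgeR adjusted p = 8.43e-06) against fibroblasts and -5.89 (SE 0.498, adjusted p = 3.82e-11) against macrophages. Tie1, the partner receptor of Tek, was not tested: it had 6 counts in all libraries labelled aortic endothelial, 51 in fibroblasts and 9 in macrophages.

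**Figure D3:**
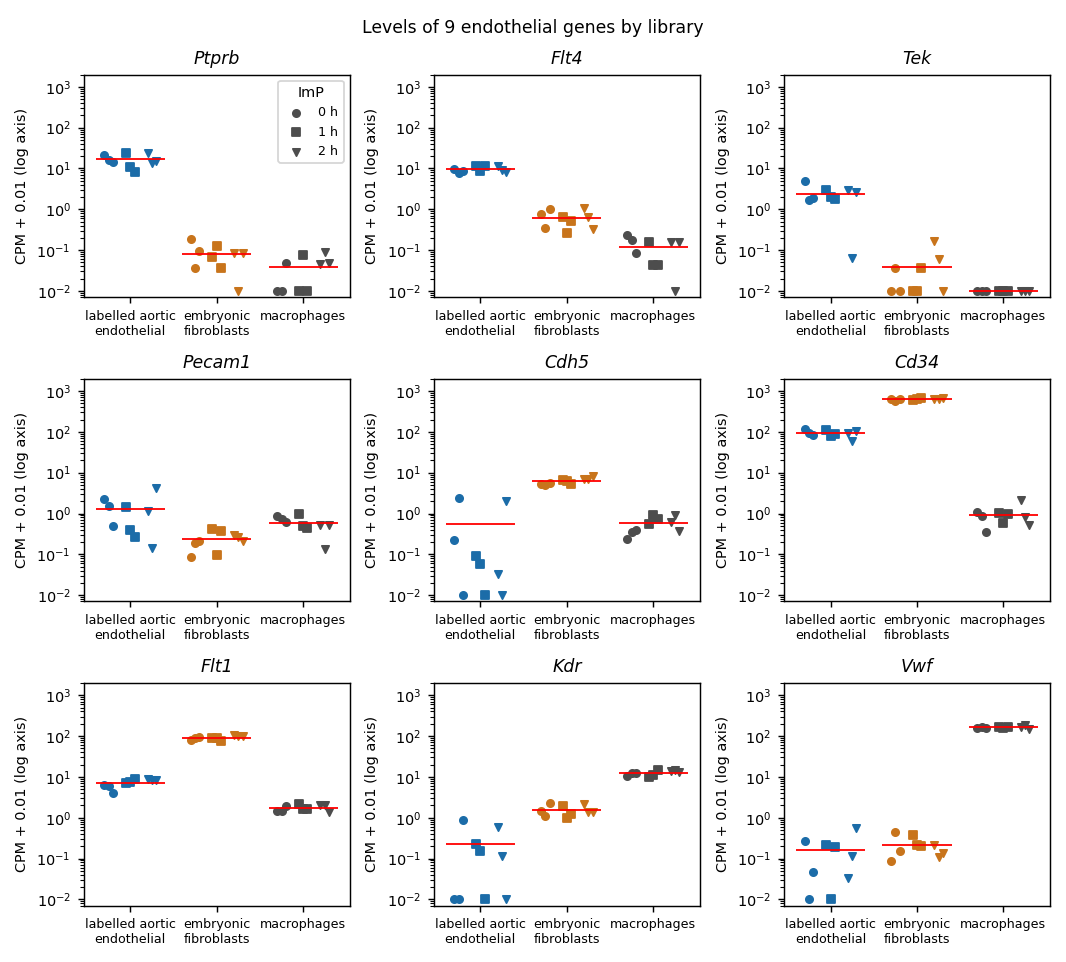
CPM + 0.01 on a log axis for 9 members in the 9 libraries of each cell type (circles 0 h, squares 1 h, triangles 2 h of ImP); red lines are means over the 9 libraries. Ptprb, Flt4 and Tek are highest in cells labelled aortic endothelial, Cdh5, Cd34 and Flt1 in fibroblasts, and Kdr and Vwf in macrophages, while Cdh5 and Pecam1 spread widely among the libraries labelled aortic endothelial.

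The junction and surface glycoproteins were dominated by Cd34, a sialomucin of vascular and mesenchymal cells (chr1:194938819-194961279, plus strand). Cd34 was at 59.0, 92.6 and 115 CPM in cells labelled aortic endothelial, against 579, 633 and 672 CPM in fibroblasts and 0.344, 0.838 and 2.17 CPM in macrophages. The 3 cell types did not overlap. Relative to fibroblasts the log2 fold change was -2.78 (SE 0.136, edgeR adjusted p = 5.72e-16), and relative to macrophages it was 6.66 (SE 0.186, adjusted p = 2.75e-21).

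Cdh5, VE-cadherin, was above 1 CPM in 2 of the 9 libraries under the endothelial label. Its levels there were 0.213, 2.40 and 0 CPM in the unstimulated libraries, 0.0833, 0.0487 and 0 CPM after 1 h and 0.0229, 0 and 2.00 CPM after 2 h. Fibroblasts ranged from 5.05 to 8.29 CPM with a median of 6.16 CPM, and macrophages from 0.221 to 0.932 CPM with a median of 0.544 CPM. Every fibroblast library lay above all others. The log2 fold change of cells labelled aortic endothelial was -4.32 (SE 0.663, edgeR adjusted p = 1.88e-06) against fibroblasts and -0.78 (SE 0.694, adjusted p = 0.296) against macrophages. The comparison with macrophages changed with single libraries and with the tool. With limma-voom and quality weights it was -2.43 (adjusted p = 0.00196). Without the second 0 h library labelled aortic endothelial the edgeR value was -1.65 (adjusted p = 0.0209), without the third 2 h library -2.54 (adjusted p = 0.000987), and with the 0 h groups alone 1.39 (adjusted p = 0.26).

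Pecam1, the CD31 adhesion molecule, was spread over a wide range under the endothelial label. It was at 2.30, 1.53 and 0.491 CPM in the unstimulated libraries, 1.42, 0.390 and 0.253 CPM after 1 h and 1.15, 0.135 and 4.17 CPM after 2 h. Fibroblasts ranged from 0.0746 to 0.398 CPM and macrophages from 0.122 to 0.944 CPM, and both ranges overlapped with those of the cells labelled aortic endothelial. Pecam1 was higher there than in fibroblasts (log2 fold change 2.48, SE 0.524, edgeR adjusted p = 0.000115). Over macrophages the value was 1.13 (SE 0.497, adjusted p = 0.0376), and without the third 2 h library labelled aortic endothelial 0.66 (adjusted p = 0.202). The call against macrophages was lost in 12 alternatives. In 8 of them a single library was left out, namely the first 0 h, the first 1 h or the third 2 h library labelled aortic endothelial, or the second or the third 0 h, the second or the third 1 h or the second 2 h macrophage library (adjusted p = 0.0555 to 0.202).

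The sialomucin gene Emcn averaged 1.03 ± 0.995 CPM in cells labelled aortic endothelial, had 5 counts in 1 fibroblast library and none in macrophages, which made it at least 81-fold higher than in macrophages (edgeR adjusted p = 1.11e-05). Esam, a junction adhesion molecule, averaged 0.708 ± 0.552 CPM in cells labelled aortic endothelial, 0.148 ± 0.176 CPM in fibroblasts and 0.0234 ± 0.034 CPM in macrophages. Podxl, an anti-adhesive sialomucin, was highest in fibroblasts, with 0.128 ± 0.18 CPM in cells labelled aortic endothelial, 3.47 ± 0.461 CPM in fibroblasts and 0.033 ± 0.0447 CPM in macrophages. Icam2, an integrin ligand, was highest in macrophages, with 35 counts over the libraries labelled aortic endothelial, 3 over those of fibroblasts and 1605 over those of macrophages. Clec14a, an endothelial C-type lectin, had 31 counts under the endothelial label and none in the other cell types. Each of the 3 cell types thus held the highest level of some low members of this group. Of its 7 tested members, 4 were higher and 3 lower in cells labelled aortic endothelial than in fibroblasts, and 5 were higher and 1 lower than in macrophages, near the 82.6% and 85.3% of all genes called in either direction. The call of Esam against fibroblasts was lost without the first 1 h library labelled aortic endothelial (edgeR adjusted p = 0.0523), and that of Podxl against macrophages without the first 2 h library labelled aortic endothelial (adjusted p = 0.0591). For Icam2 against fibroblasts and Podxl against macrophages, leaving out the second 0 h or the first 1 h library labelled aortic endothelial left a group at 0 counts on either side, which gave no usable test.

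The secreted proteins were led by Vwf in macrophages. Von Willebrand factor, stored in endothelium and megakaryocytes, was at 0, 0.108 and 0.535 CPM in cells labelled aortic endothelial, against 0.0746, 0.192 and 0.435 CPM in fibroblasts and 147, 163 and 182 CPM in macrophages. All 9 macrophage libraries stood far above the other 18. The log2 fold change of the cells labelled aortic endothelial was -9.98 (SE 0.255, edgeR adjusted p = 4.04e-22) against macrophages and -0.33 (SE 0.445, adjusted p = 0.503) against fibroblasts. Markers of other blood cells in macrophages were uneven: Pf4, a platelet chemokine gene, averaged 101 ± 11 CPM, while the megakaryocyte integrin gene Itga2b averaged 0.307 ± 0.17 CPM and the platelet glycoprotein gene Gp9 had no count.

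Egfl7, a secreted vascular regulator, was at 3.72, 5.82 and 7.16 CPM in cells labelled aortic endothelial, against 1.41, 2.08 and 2.64 CPM in fibroblasts and 0.168, 0.254 and 0.774 CPM in macrophages. Its ranges were separate, with log2 fold changes of 1.47 (SE 0.212) and 4.17 (SE 0.252; edgeR adjusted p = 5.32e-07 and 1.91e-14). Exons of Egfl7 overlap those of Agpat2 on the other strand. Agpat2 averaged 13.6 CPM in cells labelled aortic endothelial, 11 CPM in fibroblasts and 30.3 CPM in macrophages, and since the strand of counting is not given, reads of the pair cannot be told apart. Such exon overlaps also exist between Nos3 and Atg9b, Gja5 and Gpr89, Stab1 and Nt5dc2, and Cd34 and Gm16897. Reads in the shared exons of these pairs cannot be told apart either. In the same order of cell types, Atg9b averaged 0.685, 3.69 and 8.13 CPM. Nt5dc2 averaged 11.6, 20.9 and 58.8 CPM, against 0.761, 2.15 and 1270 CPM of Stab1. Gm16897 averaged 0.806, 1.68 and 0.243 CPM, against 91.9, 632 and 0.919 CPM of Cd34. Mmrn2, an endothelial matrix protein, averaged 0.717 ± 0.739 CPM in cells labelled aortic endothelial, 0.0792 ± 0.0544 CPM in fibroblasts and 0.0153 ± 0.0342 CPM in macrophages, and Mmrn1 had 1 count in the whole series.

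Among the transcription regulators, Lmo2, Tal1 and Fli1 were highest in macrophages and Ets1 in fibroblasts. Of 6 tested, 4 were higher and 1 lower in cells labelled aortic endothelial than in fibroblasts, and 2 were higher and 3 lower than in macrophages, close to the 82.6% and 85.3% of all genes called in either direction. Lmo2, the LIM-domain partner of Tal1, was at 0.721, 2.67 and 4.24 CPM in cells labelled aortic endothelial, against 0.0249, 0.124 and 0.407 CPM in fibroblasts and 125, 156 and 161 CPM in macrophages. Its 3 ranges were separate, with log2 fold changes of 3.88 (SE 0.31) against fibroblasts and -6.14 (SE 0.202) against macrophages (edgeR adjusted p = 1.45e-11 and 8.76e-20). Tal1, a helix-loop-helix factor of blood and endothelial precursors, was at 25.5 to 33.4 CPM in macrophages with a median of 27.1 CPM and had 9 counts in all in each of the other cell types. Fli1, an ETS factor of both lineages, was at 1.96, 5.27 and 9.40 CPM in cells labelled aortic endothelial, against 0.697, 1.05 and 1.31 CPM in fibroblasts and 88.5, 101 and 105 CPM in macrophages. It was higher than in fibroblasts (log2 fold change 2.45, SE 0.197) and lower than in macrophages (-4.12, SE 0.178; edgeR adjusted p = 1.46e-11 and 2.58e-17), with no overlap.

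Ets1, an ETS factor of many cell types, had the reverse order. It was at 45.8, 62.7 and 86.5 CPM in cells labelled aortic endothelial, against 140, 161 and 200 CPM in fibroblasts and 10.2, 11.4 and 15.6 CPM in macrophages. The ranges did not overlap, and the log2 fold changes were -1.38 (SE 0.0887) against fibroblasts and 2.45 (SE 0.0947) against macrophages (edgeR adjusted p = 8.69e-14 and 1.03e-18). Gata2, a zinc finger factor of endothelium and blood progenitors, was close between cells labelled aortic endothelial and fibroblasts, at 5.77, 8.39 and 14.4 CPM in cells labelled aortic endothelial and 4.50, 5.77 and 8.17 CPM in fibroblasts. Those ranges overlapped, with a log2 fold change of 0.61 (SE 0.243, edgeR adjusted p = 0.0237). The call was lost on library totals (0.49, adjusted p = 0.0588), with the 0 h groups alone (0.17, adjusted p = 0.727), without the first 2 h library labelled aortic endothelial (0.54, adjusted p = 0.0538) and without the first 0 h fibroblast library (0.56, adjusted p = 0.0502). Macrophages held 0, 0.0368 and 0.608 CPM of Gata2.

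Of the SOX factors, which act in arterial and lymphatic specification, Sox7 averaged 0.976 ± 0.589 CPM in cells labelled aortic endothelial, 0.0276 ± 0.0449 CPM in fibroblasts and 1.25 ± 0.411 CPM in macrophages. The difference between cells labelled aortic endothelial and macrophages did not pass the test (log2 fold change -0.38, 95% interval -1.36 to 0.6, edgeR adjusted p = 0.458). Sox18 had 0 counts in cells labelled aortic endothelial, 2 in fibroblasts and 5 in macrophages. Erg, the ETS factor most closely tied to endothelial identity, had 9, 14 and 15 counts in the same order and was not tested. Both Sox18 and Erg thus had few or no counts in every cell type.

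S1pr1, the sphingosine-1-phosphate receptor of vessels and lymphocytes, was at 3.86, 10.7 and 14.8 CPM in cells labelled aortic endothelial, against 1.01, 1.26 and 2.47 CPM in fibroblasts and 118, 130 and 143 CPM in macrophages. The groups did not overlap, with log2 fold changes of 2.93 (SE 0.186) and -3.61 (SE 0.168; edgeR adjusted p = 1.23e-13 and 1.43e-16). Plvap, the protein of endothelial diaphragms, was at 3.12, 8.52 and 10.9 CPM in cells labelled aortic endothelial and 7.58, 8.08 and 12.1 CPM in fibroblasts. These ranges overlapped (log2 fold change -0.22, 95% interval -0.78 to 0.34, edgeR adjusted p = 0.459), whereas macrophages reached at most 0.405 CPM. Nos3, endothelial nitric oxide synthase, averaged 1.13 ± 0.469 CPM in cells labelled aortic endothelial, 0.156 ± 0.0736 CPM in fibroblasts and 0.138 ± 0.117 CPM in macrophages. It was higher in cells labelled aortic endothelial than in both others (log2 fold changes 2.81, SE 0.546, and 3.05, SE 0.567, edgeR adjusted p = 4.13e-05 and 2.11e-05). Aplnr, the apelin receptor, took 28 of its 29 counts under the endothelial label from 1 library, the third at 0 h.

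The arterial connexins were found in cells labelled aortic endothelial. Gja4, a gap junction protein, was at 2.99, 3.80 and 7.03 CPM there, against 0, 0.0568 and 0.430 CPM in fibroblasts, and had 2 counts over the macrophage libraries. Every library under the endothelial label lay above all others. Its log2 fold change over fibroblasts was 5.41 (SE 0.484, edgeR adjusted p = 2.4e-10), and over macrophages the ratio of summed levels was 550 with a counting interval of 152 to 4540. Gja5, another, averaged 1.05 ± 0.595 CPM in cells labelled aortic endothelial, 0.0303 ± 0.0424 CPM in fibroblasts and 0.0439 ± 0.0672 CPM in macrophages. Its libraries labelled aortic endothelial again lay above all others (log2 fold changes 4.95, SE 0.859, and 4.37, SE 0.842, edgeR adjusted p = 9.15e-06 and 3.51e-05). Exons of Gja5 overlap those of Gpr89 on the other strand, and reads of the pair cannot be told apart. Gpr89 averaged 22.6 CPM in cells labelled aortic endothelial, 24.6 CPM in fibroblasts and 39.2 CPM in macrophages. Dll4, the Notch ligand of arterial and tip cells, had 3 counts under the endothelial label, 55 in fibroblasts and 13 in macrophages.

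The scavenger receptors of sinusoidal endothelium were macrophage transcripts in these data. Stab1 (chr14:31139013-31168641, minus strand), which is also made by tissue macrophages, was at 0.262, 0.779 and 1.54 CPM in cells labelled aortic endothelial, against 1.49, 1.83 and 3.23 CPM in fibroblasts and 1190, 1270 and 1350 CPM in macrophages. It was the most abundant member in any cell type by this measure, and the log2 fold change of cells labelled aortic endothelial was -10.76 against macrophages (SE 0.196, edgeR adjusted p = 4.13e-25) and -1.56 against fibroblasts (SE 0.199, adjusted p = 9.72e-08). Stab2, its relative, averaged 0.118 ± 0.181 CPM in cells labelled aortic endothelial, 0.314 ± 0.146 CPM in fibroblasts and 25.2 ± 2.07 CPM in macrophages. Prox1 and Lyve1, the lymphatic genes of this group, were under 1 CPM in every library. Prox1, the regulator of lymphatic fate, averaged 0.319 ± 0.235 CPM in cells labelled aortic endothelial, 0.00947 ± 0.0142 CPM in fibroblasts and 0.0897 ± 0.0828 CPM in macrophages. Lyve1, a hyaluronan receptor, averaged 0.0926 ± 0.213 CPM in cells labelled aortic endothelial, 0.0147 ± 0.0303 CPM in fibroblasts and 0.144 ± 0.0887 CPM in macrophages. For Prox1 the call against macrophages (edgeR adjusted p = 0.0492) was lost in 29 alternatives.

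Fibroblasts and macrophages, which carry no endothelial label, differed from each other in 24 of 29 members, beside 80.0% of all genes. Emcn, at 5 counts in fibroblasts and 0 in macrophages, gave no usable test there. The higher ones in fibroblasts included Cd34 at 632 ± 30.1 CPM against 0.919 ± 0.529 CPM in macrophages (log2 fold change 9.44, SE 0.199, edgeR adjusted p = 1.03e-23). Flt1 averaged 91.1 ± 9.55 CPM in fibroblasts and 1.73 ± 0.29 CPM in macrophages (5.71, SE 0.103, adjusted p = 1.36e-25). Among the lower ones, Stab1 was at 2.15 ± 0.632 CPM in fibroblasts and 1270 ± 56.8 CPM in macrophages (-9.21, SE 0.178, adjusted p = 1.8e-24).

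Libraries under the endothelial label also varied more among themselves. The coefficient of variation over 9 libraries had a median of 34.3% for the 17 members at 1 CPM in cells labelled aortic endothelial, 18.1% for 12 members in fibroblasts and 9.5% for 12 in macrophages, beside 19.7%, 10% and 8.7% over all genes at 1 CPM. Low members vary more through counting alone, so these figures are descriptions. Among 29 members with a mean of at least 0.1 CPM in cells labelled aortic endothelial, the third 2 h library was the highest of 9 for 7, including Pecam1, Emcn, Esam, Mmrn2 and Vwf. Its 12 endothelial markers summed to 19.7 CPM, against 5.93 CPM in the second 2 h library, with library totals of 26.2 M and 36.1 M counts. The other libraries under that label were each the highest for 1 to 4 members. Shares of all genes highest in each library are not given here, so no excess of members in any library can be read from these counts. Some of them rest on few counts, such as 15 of Vwf and 44 of Esam in the third 2 h library.

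A list of 35 other endothelial pathway genes, the ligands and co-receptors of these receptors together with flow, Notch and ALK1 pathway genes, gave a mixed picture. Of 34 tested against fibroblasts, 15 were higher and 15 lower in cells labelled aortic endothelial, near the 42.5% and 40.1% of all genes. The sphingosine-1-phosphate receptor gene S1pr3 averaged 360 ± 69.7 CPM in cells labelled aortic endothelial and 2.47 ± 0.459 CPM in fibroblasts (log2 fold change 7.18, SE 0.142, edgeR adjusted p = 1.39e-24). The TGF-beta co-receptor gene Eng averaged 102 ± 15.1 CPM in cells labelled aortic endothelial and 1.89 ± 0.401 CPM in fibroblasts (5.75, SE 0.112).

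Thrombomodulin (Thbd), an anticoagulant surface protein, averaged 828 ± 123 CPM in cells labelled aortic endothelial and 24.1 ± 2.78 CPM in fibroblasts, and the Tek ligand gene Angpt2 averaged 30.3 ± 6.41 CPM in cells labelled aortic endothelial and 1.34 ± 0.347 CPM in fibroblasts. Lower in cells labelled aortic endothelial than in fibroblasts were the co-receptor gene Nrp2 (4.42 ± 1.57 against 250 ± 25.5 CPM), the apelin gene Apln (3.45 ± 2.04 against 153 ± 17.1 CPM), the adhesion gene Mcam (1.14 ± 0.764 against 43.3 ± 2.63 CPM) and the Notch target gene Hey2 (0.116 ± 0.214 against 2.29 ± 0.59 CPM). Against macrophages 20 of 34 were higher and 10 lower, beside 45.3% and 40.1% of all genes. The caveolin gene Cav1 averaged 623 ± 66.1 CPM in cells labelled aortic endothelial and 2.3 ± 0.578 CPM in macrophages (log2 fold change 8.08, SE 0.112), and the C-type lectin gene Cd93 averaged 2.95 ± 0.795 CPM in cells labelled aortic endothelial and 1350 ± 88.2 CPM in macrophages (-8.86, SE 0.176).

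No member passed the threshold with ImP in any cell type. In the fits of single cell types, 22 members were tested in cells labelled aortic endothelial, 15 in fibroblasts and 15 in macrophages. The count of members called by edgeR was 0 at 1 h and 0 at 2 h in each cell type, where 0.0% and 0.0% of all genes were called in cells labelled aortic endothelial, 0.0% and 0.0% in fibroblasts, and 0.0226% and 0.0302% in macrophages. With both macrophage libraries in doubt left out, 125 genes at 1 h and 16 at 2 h were called in macrophages (0.928% and 0.119% of 13465), against 3 and 4 with them. At an unadjusted p under 0.05, 2 and 3 members stood in cells labelled aortic endothelial at 1 and 2 h, 1 and 2 in fibroblasts, and 2 and 3 in macrophages. The share of all genes at that threshold was 4.96% and 9.21% in cells labelled aortic endothelial, 5.87% and 2.43% in fibroblasts and 5.23% and 6.15% in macrophages. DESeq2 and limma-voom likewise called 0 members in all 6 comparisons. Over all genes DESeq2 called 1 at 1 h and 19 at 2 h in cells labelled aortic endothelial, 10 and 5 in fibroblasts and 13 and 15 in macrophages, and limma-voom called 0 in cells labelled aortic endothelial, 0 in fibroblasts, and 4 and 3 in macrophages. The 1 h and 2 h comparisons of a cell type share their 0 h libraries.

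The median log2 fold change of the tested members was 0.03 at 1 h and 0.16 at 2 h in cells labelled aortic endothelial, 0.02 and -0.04 in fibroblasts, and 0.04 and 0.06 in macrophages, beside medians between -0.01 and 0.01 over all genes. Members whose 3 ImP libraries lay all above or all below the 3 unstimulated ones numbered 6 of 22 and 3 of 22 in cells labelled aortic endothelial at 1 and 2 h (all genes 8.9% and 14.7%), 1 of 15 and 4 of 15 in fibroblasts (9.93% and 10.2%), and 3 of 15 and 6 of 15 in macrophages (10.1% and 11.5%).

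In cells labelled aortic endothelial, Flt1 was at 6.22, 5.90 and 4.12 CPM in the unstimulated libraries, 7.16, 7.45 and 8.73 CPM after 1 h and 8.72, 8.33 and 8.23 CPM after 2 h. All 6 treated libraries lay above the 3 unstimulated ones. The log2 fold change was 0.54 at 1 h (SE 0.263, edgeR adjusted p = 0.826) and 0.64 at 2 h (SE 0.262, adjusted p = 0.539), so neither passed. Ets1 averaged 55.1 ± 8.58 CPM at 0 h, 67.6 ± 16.9 CPM at 1 h and 72.2 ± 11 CPM at 2 h (log2 fold changes 0.30 and 0.39, adjusted p = 0.826 and 0.539), with overlap at both times.

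Gata2 had the smallest p at 1 h in these cells, with 12.2 ± 2.94 CPM against 7.45 ± 0.814 CPM at 0 h (n = 3 libraries each; log2 fold change 0.72, SE 0.273, edgeR adjusted p = 0.826). Esam averaged 0.17 ± 0.148 CPM at 1 h and 1.1 ± 0.2 CPM at 0 h (-2.66, SE 1.19), and Gja5 0.595 ± 0.304 CPM at 1 h and 1.57 ± 0.328 CPM at 0 h (-1.38, SE 0.864), each at an adjusted p of 0.826. At 2 h, Lmo2 averaged 3.39 ± 0.745 CPM against 1.42 ± 0.337 CPM at 0 h (1.26, SE 0.547, edgeR adjusted p = 0.541). Fli1 averaged 7.17 ± 2.26 CPM at 2 h against 4.2 ± 1.94 CPM at 0 h (0.77, adjusted p = 0.595) and Emcn 1.65 ± 1.19 CPM at 2 h against 0.457 ± 0.279 CPM at 0 h (1.85, adjusted p = 0.609). None of these differences passed the adjustment, and the 95% interval of Emcn ran from -0.50 to 4.21, so large changes of low members were not detectable here.

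In fibroblasts, Cdh5 was at 5.37, 5.05 and 5.55 CPM in the unstimulated libraries, 6.45, 6.16 and 5.37 CPM after 1 h and 6.94, 6.90 and 8.29 CPM after 2 h. The 2 h libraries lay above those of 0 h, with a log2 fold change of 0.44 (SE 0.146, unadjusted p = 0.00922, edgeR adjusted p = 1). Egfl7 averaged 1.52 ± 0.169 CPM at 0 h, 2.4 ± 0.28 CPM at 1 h and 2.12 ± 0.127 CPM at 2 h (0.64 and 0.45, adjusted p = 0.846 and 1). Flt1 averaged 102 ± 4.08 CPM at 2 h against 87.8 ± 6.01 CPM at 0 h (0.19, SE 0.0782, adjusted p = 1).

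The remaining members among the 5 smallest p-values in fibroblasts were Ets1, Gata2, Plvap and Pecam1 at 1 h and Ets1 and Gata2 at 2 h. Ets1 averaged 152 ± 10.6 CPM at 0 h, 178 ± 21.6 CPM at 1 h and 177 ± 23 CPM at 2 h, and Gata2 averaged 6.61 ± 1.39 CPM at 0 h, 5.21 ± 0.979 CPM at 1 h and 5.82 ± 0.926 CPM at 2 h, with overlapping libraries throughout. Plvap was at 9.81 ± 2.09 CPM at 1 h against 8.31 ± 1.18 CPM at 0 h, and Pecam1 at 0.28 ± 0.169 CPM at 1 h against 0.15 ± 0.0662 CPM at 0 h. Cd34, the most abundant member in fibroblasts, had log2 fold changes of 0.02 (95% interval -0.13 to 0.16) at 1 h and 0.04 (-0.10 to 0.19) at 2 h.

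In macrophages, Icam2 was at 7.52, 8.01 and 6.28 CPM in the unstimulated libraries, 6.28, 7.22 and 6.29 CPM after 1 h and 4.75, 5.47 and 5.78 CPM after 2 h. The 2 h libraries lay below those of 0 h, with a log2 fold change of -0.44 (SE 0.158, edgeR adjusted p = 0.744), or -0.50 (adjusted p = 0.558) when the third libraries of 1 h and 2 h were left out. S1pr1 averaged 140 ± 2.58 CPM at 0 h, 130 ± 4.68 CPM at 1 h and 125 ± 5.88 CPM at 2 h (-0.11 and -0.16, adjusted p = 0.942 and 0.744), and without the third libraries the values were -0.14 and -0.18 (adjusted p = 0.67 and 0.563). Ets1 averaged 13.6 ± 1.75 CPM at 0 h, 11.1 ± 0.465 CPM at 1 h and 11 ± 0.73 CPM at 2 h (-0.29 and -0.30, adjusted p = 0.922 and 0.746), and -0.31 and -0.34 (adjusted p = 0.67 and 0.626) without the third libraries. All 6 treated libraries were below the 3 unstimulated ones for S1pr1 and Ets1, and neither gene passed the adjustment.

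Cdh5 in macrophages averaged 0.313 ± 0.0831 CPM at 0 h, 0.736 ± 0.192 CPM at 1 h and 0.644 ± 0.28 CPM at 2 h (log2 fold changes 1.22, SE 0.522, and 1.03, SE 0.53, edgeR adjusted p = 0.922 and 0.812), and without the third libraries the values were 1.22 and 1.31 (adjusted p = 0.72 and 0.645). Tal1 averaged 25.9 ± 0.372 CPM at 0 h, 29.4 ± 3.67 CPM at 1 h and 29.6 ± 3.32 CPM at 2 h (0.18 and 0.20, adjusted p = 0.951 and 0.812), or 0.10 and 0.26 (adjusted p = 0.931 and 0.597) without the third libraries. Sox7 averaged 1.57 ± 0.613 CPM at 1 h against 1.03 ± 0.189 CPM at 0 h (0.61, adjusted p = 0.954), or 0.82 (adjusted p = 0.72) without the third libraries. Without the third libraries, 0 of 16 members tested were called at either time, where 0.928% and 0.119% of all genes were, while 2 at 1 h and 7 at 2 h had an unadjusted p under 0.05, beside 7.4% and 7.75% of all genes in the same fits.

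**Figure D4:**
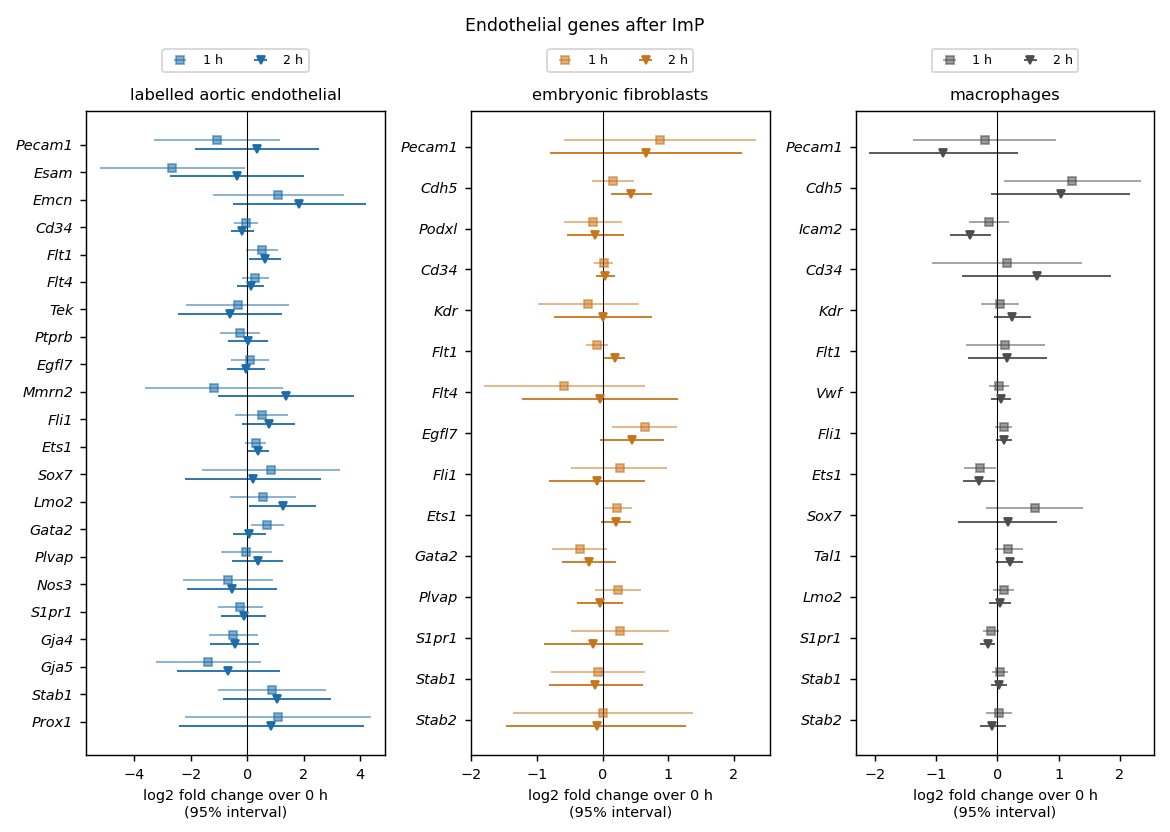
Log2 fold change over 0 h after 1 h (squares) and 2 h (triangles) of ImP, with 95% intervals, for the members tested in each cell type (22, 15 and 15 from left to right). Points cluster around 0, the axis ranges differ between panels, and intervals are widest for low members such as Prox1, Esam and Emcn in cells labelled aortic endothelial.

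The change with ImP was also compared between cell types in the model of all libraries. None of 29 members was called by edgeR in any of the 6 differences of change. Of 17038 genes, 0.0% were called in both differences between cells labelled aortic endothelial and fibroblasts, 0.0117% at 1 h and 0.0528% at 2 h between cells labelled aortic endothelial and macrophages, and 0.00587% and 0.0117% between fibroblasts and macrophages. With both macrophage libraries in doubt left out these shares were 0.216% at 1 h and 0.0398% at 2 h for cells labelled aortic endothelial and macrophages, and 0.154% and 0.0114% for fibroblasts and macrophages, of 17582 genes, with 0 of 29 members called. DESeq2 and limma-voom called none of the members either. Over all genes DESeq2 called 81 at 1 h and 62 at 2 h between cells labelled aortic endothelial and fibroblasts, 45 and 106 between cells labelled aortic endothelial and macrophages, and 5 and 4 between fibroblasts and macrophages, where limma-voom called 0 to 5. At an unadjusted p under 0.05, 1 to 3 of the 29 members stood in each, beside 2.18% to 11% of all genes. The smallest adjusted p-values were those of Flt1 at 1 h (cells labelled aortic endothelial minus fibroblasts, 0.324) and Ets1 at 2 h (cells labelled aortic endothelial minus macrophages, 0.376). Nor was any of the 35 pathway genes called with ImP in any cell type at either time by edgeR, out of 30 tested in cells labelled aortic endothelial, 33 in fibroblasts and 25 in macrophages.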

How the data were processed

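RNA was sequenced from 27 libraries of 3 mouse cell cultures, 9 groups of 3. The authors deposited expected counts per gene symbol, estimated with RSEM on GRCm38.p6 after STAR alignment, per the submitters' processing notes; every value was a whole number, and the strand of counting is not given in the sources used here. From these counts, genes were filtered (filterByExpr, minimum count 10), scaled by TMM and tested with edgeR 4.0.16 (quasi-likelihood, robust) in R 4.3.3, with Benjamini-Hochberg adjustment over all genes tested and a threshold of 0.05. Cell types were compared in 1 model of 9 groups as means over the 3 times, and ImP against 0 h within each cell type. Length-corrected levels used union exon lengths of GENCODE M21. The scripts were tested on simulated counts. Genes named with ImP are the 5 with the smallest p per comparison. DESeq2 1.42.0, limma 3.58.1, other scalings, filters and left-out libraries were alternatives. All 27 replicate pairs differed by more than sampling noise (smallest chi-square per degree of freedom 5.69). Members and gene lists were chosen with earlier results of these data known.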

Additional observations from a re-analysis of the deposited data

Results flagged for a closer look

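Of 44 sets of 9 libraries, each examined for a member or for the summed level of the members, 6 were flagged. In these, 1 library had a gap to its nearest neighbour that was large for the range of the set. Chance flags about 1 in 20 if values are normally distributed, which was not tested here. S1pr1 was at 3.86 CPM in the third 1 h library labelled aortic endothelial, where the next lowest library had 9.60 CPM. In fibroblasts the first 1 h library held the highest Plvap, at 12.1 CPM with the next at 9.68 CPM, and the highest S1pr1, at 2.47 CPM with the next at 1.69 CPM. In macrophages Sox7 reached 2.25 CPM in the second 1 h library, with the next at 1.38 CPM. Lmo2 was at 125 CPM in the second 0 h macrophage library, below the next value of 151 CPM, and Ets1 at 15.6 CPM in the third 0 h macrophage library, above the next value of 12.6 CPM.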

How the results depend on the processing

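Leaving out 1 library at a time kept the counts of called members at 24 to 26 (16 to 18 higher, 7 to 9 lower) for cells labelled aortic endothelial against fibroblasts, 25 to 27 (16 to 18 higher, 9 to 10 lower) for those cells against macrophages and 23 to 25 for fibroblasts against macrophages. Requiring a mean of 1 CPM over all libraries gave 17 called members (9 higher) against fibroblasts and 10 higher against macrophages, since fewer members were then tested. With the level required in every library, 11 members reached 1 CPM and 2 reached 10 CPM in cells labelled aortic endothelial. Cdh5 in cells labelled aortic endothelial against macrophages turned to 1.39 with the 0 h groups alone, and the cause was not tested. Calls were lost under some alternative for 5 of 26 members against fibroblasts (Esam, Gata2, Icam2, Mmrn2 and Stab2), 3 of 27 against macrophages (Pecam1, Podxl and Prox1) and 5 of 24 between fibroblasts and macrophages (Esam, Gja4, Mmrn2, Pecam1 and Prox1), and no called value changed sign. Apart from Gata2, Pecam1 and Prox1, whose calls single libraries also ended, leaving out the first 1 h library labelled aortic endothelial ended the call of Esam against fibroblasts, the first 2 h library so labelled that of Podxl against macrophages, and the first 2 h fibroblast library that of Stab2. Between fibroblasts and macrophages, Esam was lost without the second 0 h or the first 1 h fibroblast library (adjusted p = 0.156 and 0.0724). With Icam2, Podxl or Prox1, leaving out a library could put a group of both cell types at 0 counts, and the edgeR test was then void: Icam2 against fibroblasts and Podxl against macrophages without the second 0 h or the first 1 h library labelled aortic endothelial, and Prox1 between fibroblasts and macrophages without the first 2 h macrophage library. The median of all genes moved to 0.48 on library totals for fibroblasts against macrophages, against 0.10 with TMM, and 62.1% of calls were then higher, against 52.4% (members 13 higher and 11 lower). No member was called with ImP under any alternative, while the count of all genes called in macrophages at 1 h was 125 with both macrophage libraries of doubtful time (the third at 1 h and at 2 h) left out, against 3 with them. A replicate block of library code runs called 0 members with ImP. Not every same-run pair of libraries deviated together (correlations -0.05 to 0.23, -0.12 to 0.40 and -0.38 to 0.13 in cells labelled aortic endothelial, fibroblasts and macrophages). Of 9 libraries, 6 in cells labelled aortic endothelial, 6 in fibroblasts and 1 in macrophages correlated best with one of their own run, a hint from the data and not the design, and the labels tie no runs to a shared source.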
